A study of Mus musculus with 12 samples.

Results

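Hox genes, the homeobox genes that give each level of the body axis its identity, were followed in cerebellar RNA of mice with spinocerebellar ataxia type 1 (SCA1). All protein-coding genes named Hoxa, Hoxb, Hoxc or Hoxd with a number were taken, which gave 39 of the 56941 genes in the count tables. Of these, 11 lie in the Hoxa cluster on chromosome 6, 10 in the Hoxb cluster on chromosome 11, 9 in the Hoxc cluster on chromosome 15 and 9 in the Hoxd cluster on chromosome 2. Genes with the same number in different clusters are paralogues. The question asked was which Hox genes contributed RNA to each library.

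Within a cluster, genes with low numbers are expressed from the hindbrain backwards and genes with higher numbers begin further back, towards the spinal cord. Neurons of the adult medulla and cord keep part of this code. The cerebellum grows from the first rhombomere, the foremost segment of the hindbrain, which lies in front of the Hox domain, so its own cells are known for lacking Hox expression.

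Bulk RNA was sequenced from the cerebellum of 12 mice on the C57BL/6J background at 16 weeks of age, 3 mice in each of 4 groups. WT sedentary (mice 116, 117 and 192) and WT exercise mice (121, 197 and 201) were littermate controls, and SCA1 sedentary (16, 194 and 195) and SCA1 exercise mice (55, 122 and 198) were heterozygous Atxn1154Q/2Q knock-in mice, whose expanded CAG repeat is present in every cell from conception, not a transgene. Exercise mice lived alone with a running wheel from 4 weeks of age and sedentary mice lived in groups without a wheel, so running and housing cannot be told apart. The RNA of 2 samples was less intact than that of the rest, and their libraries were made with a changed fragmentation time and number of amplification cycles. Which libraries these were was not given in the sources used here, so the part of RNA integrity and of this preparation in the results was not tested.

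Reverse-strand counts were between 20556802 and 32127508 read pairs per library. Levels are given as CPM, read pairs per 1000000 of the TMM-scaled library. The libraries of SCA1 sedentary mouse 16 and SCA1 exercise mouse 55 stood apart before any Hox gene was considered. Read pairs that mapped to several places made up 6.38% and 6.33% of them, against 2.08% to 3.46% of the other 10. Genes of cerebellar cells were high throughout, with a sum over 10 genes from 2281 CPM in mouse 16 to 4636 CPM in WT sedentary mouse 117.

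The 39 Hox genes held 3364 read pairs over the 12 libraries, and 93.2% of these came from mice 16 and 55. The summed Hox level was 49.9 CPM in SCA1 sedentary mouse 16 (95% exact Poisson interval 47.4 to 52.6, from 1414 read pairs). It was 68.3 CPM in SCA1 exercise mouse 55 (65.1 to 71.6, from 1721 read pairs). The third highest library was that of WT exercise mouse 201 with 3.64 CPM (2.92 to 4.47, from 90 read pairs), followed by SCA1 exercise mouse 198 with 1.80 CPM (1.30 to 2.43, from 42 read pairs). The remaining 8 libraries, from all 4 groups, lay between 0.241 and 0.934 CPM, from 5 to 22 read pairs each. These intervals cover counting error only. In bulk RNA, fewer cells that express a gene and less RNA per cell cannot be told apart.

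By group, the summed Hox level was 0.456 ± 0.241 CPM in WT sedentary, 1.48 ± 1.87 CPM in WT exercise, 17.0 ± 28.5 CPM in SCA1 sedentary and 23.6 ± 38.7 CPM in SCA1 exercise mice (mean ± SD, n = 3 each). The values of all 4 groups overlapped, and in each SCA1 group the mean was set by 1 library. Without mouse 16 the SCA1 sedentary mean was 0.587 CPM (n = 2), and without mouse 55 the SCA1 exercise mean was 1.21 CPM (n = 2). Without mouse 201 the WT exercise mean was 0.405 CPM (n = 2).

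**Figure D1:**
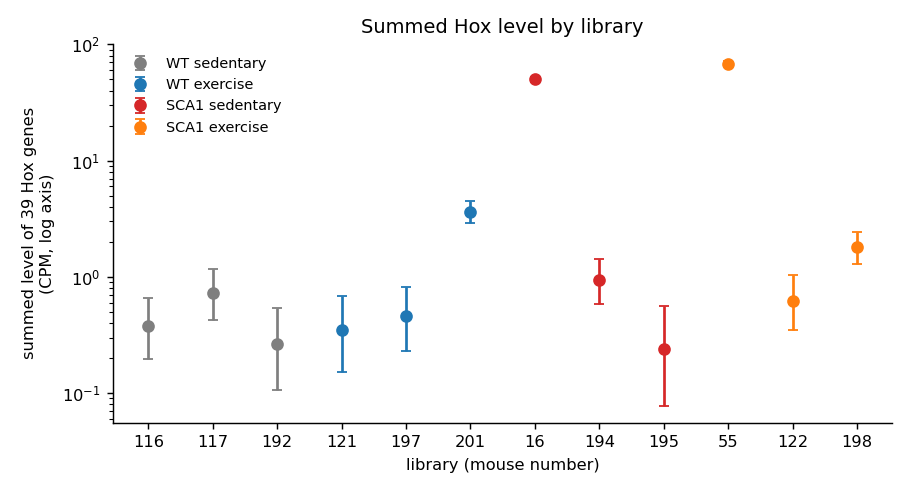
Summed level of the 39 Hox genes in each library, in CPM on a log axis, with 95% exact Poisson intervals (within the marker for mice 16 and 55) and colours for the 4 groups. Mouse 16 at 49.9 CPM and mouse 55 at 68.3 CPM lie above the other 10 libraries, the highest of which is mouse 201 at 3.64 CPM.

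Of the 39 genes, 23 had at least 1 read in some library and 16 had none. The members without reads were Hoxb1, Hoxc8 and 14 of the 16 members with numbers 9 to 13. For these a count of 0 allows up to 3 read pairs per library, which is 0.0947 to 0.144 CPM. Mice 16 and 55 were both above each of the other 10 libraries for 22 of the 23 members with reads. Over the 35145 genes with at least 1 read this was so for 11.7%. The exception was Hoxd13, with 3 read pairs in mouse 194 and 1 each in mice 201 and 55.

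**Figure D2:**
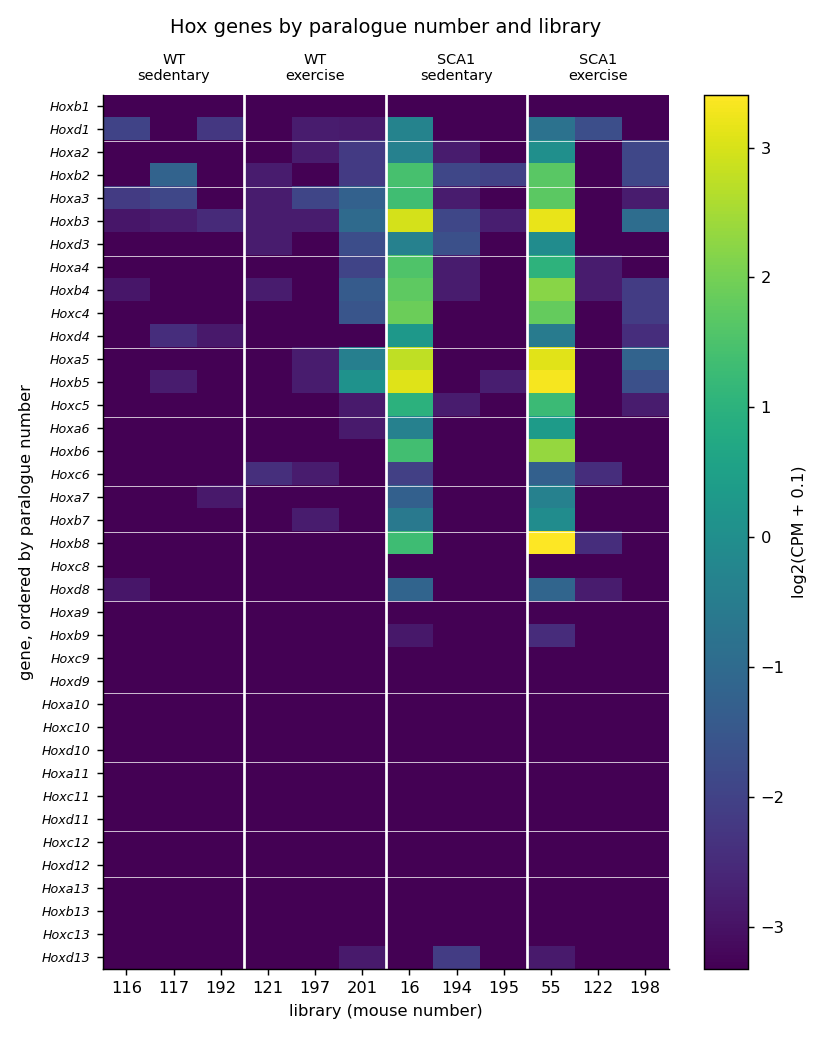
Level of 38 Hox genes (rows, by paralogue number) in each library (columns, by group), as log2(CPM + 0.1). The columns of mice 16 and 55 are bright from Hoxd1 to Hoxb8 and dark from number 9 on, and those of mice 201 and 198 are faintly raised up to number 5.

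The low-numbered members, paralogues 1 to 3, begin within the hindbrain in the embryo. Hoxd1, of the first group, was scarce, with 20 read pairs in mouse 16, 12 in mouse 55 and 0 to 5 in the other libraries. Hoxb1, which marks the fourth rhombomere in the embryo, had no read. Of the second group, Hoxa2, known for patterning the neural crest of the second arch, had 19 and 23 read pairs in mice 16 and 55 and 0 to 4 elsewhere. Hoxb2 had 74 and 79, and 0 to 8 elsewhere. Its 8 read pairs in WT sedentary mouse 117 were the highest value of any member in a WT sedentary library.

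Hoxb3 (ENSMUSG00000048763, chromosome 11 of GRCm39 from 96214152 to 96238756) was the member detected in the most libraries, with reads in 11 of 12. Its level was 0.0316, 0.0427 and 0.0755 CPM in WT sedentary mice 116, 117 and 192, and 0.0438, 0.0417 and 0.404 CPM in WT exercise mice 121, 197 and 201. It was 7.73, 0.170 and 0.0481 CPM in SCA1 sedentary mice 16, 194 and 195, and 9.05, 0 and 0.429 CPM in SCA1 exercise mice 55, 122 and 198. The SCA1 sedentary and WT sedentary values overlapped, and mice 201 and 198, from different groups, were nearly equal. Hoxa3 had 69 and 80 read pairs in mice 16 and 55, and Hoxd3 19 and 22. The other libraries had 0 to 8 of Hoxa3 and 0 to 5 of Hoxd3.

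Paralogues 4 and 5 are expressed from the caudal hindbrain and upper cervical cord backwards in the embryo. They held the largest share of Hox reads in mice 16, 55 and 201, and in mouse 198 their share could not be told from that of paralogues 1 to 3. Hoxa4 had 81 read pairs in mouse 16 and 49 in mouse 55, Hoxb4 91 and 115, Hoxc4 103 and 86, and Hoxd4 31 and 15. In the other 10 libraries Hoxb4 reached 7 read pairs, Hoxc4 6, Hoxa4 4 and Hoxd4 2. Hoxd4 shares exons with Hoxd3 and a predicted gene, so only 1425 bases of its exons are its own and pairs on the shared bases were not counted. Hoxc5 had 54 and 58 read pairs in mice 16 and 55 and at most 1 elsewhere.

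Hoxa5 (ENSMUSG00000038253, chromosome 6 from 52178734 to 52181567), needed for the respiratory tract and the phrenic motor column, had no read in 7 libraries. These were all 3 WT sedentary mice, WT exercise mouse 121, SCA1 sedentary mice 194 and 195 and SCA1 exercise mouse 122. Its level was 6.74 CPM in mouse 16, 8.45 CPM in mouse 55, 0.647 CPM in mouse 201, 0.343 CPM in mouse 198 and 0.0417 CPM in mouse 197. Per kb of exon it was the highest member in mice 16 (3.59 CPM per kb) and 55 (4.50 CPM per kb).

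Hoxb5 (ENSMUSG00000038700, chromosome 11 from 96194162 to 96196947) had 8.33 CPM in mouse 16, 9.92 CPM in mouse 55, 0.970 CPM in mouse 201 and 0.214 CPM in mouse 198. In WT sedentary mice 116, 117 and 192 it had 0, 0.0427 and 0 CPM, and in WT exercise mice 121 and 197 it had 0 and 0.0417 CPM. In SCA1 sedentary mice 194 and 195 it had 0 and 0.0481 CPM, and in SCA1 exercise mouse 122 it had 0 CPM. Its 24 read pairs in mouse 201 were the highest count of any member outside mice 16 and 55.

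Paralogues 6 to 8 begin further back in the embryo, from about the junction of hindbrain and cord to the thoracic cord. Hoxb6 had 71 read pairs in mouse 16, 126 in mouse 55 and none in the other 10 libraries. Hoxa6 had 19 and 30 read pairs in mice 16 and 55, Hoxa7 9 and 17, Hoxb7 16 and 22, and Hoxd8 10 and 9, with at most 1 read pair of each elsewhere. Hoxc6 was barely detected, with 4, 8 and 0 to 2 read pairs.

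Hoxb8 (ENSMUSG00000056648, chromosome 11 from 96172731 to 96176160), known for its role in spinal sensory circuits and in grooming, had 68 read pairs in mouse 16 (2.40 CPM) and 265 in mouse 55 (10.5 CPM). Of the other libraries only that of SCA1 exercise mouse 122 had reads of it, 2 in number. At number 9 the reads ended: Hoxb9 had 1 and 2 read pairs in mice 16 and 55, and Hoxa9, Hoxc9 and Hoxd9 had none in any library.

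**Figure D3:**
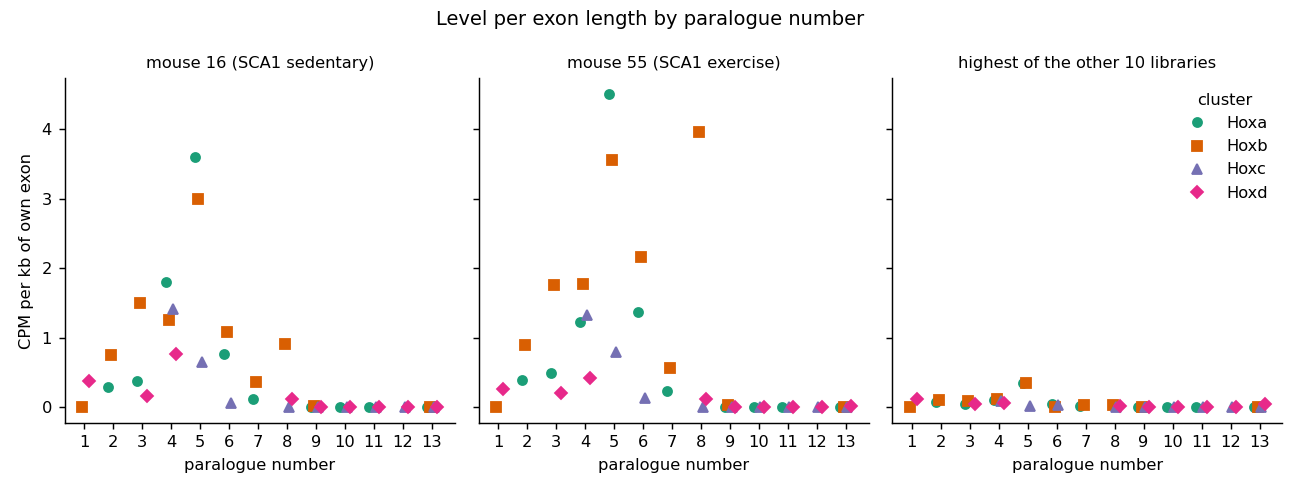
Level of 38 Hox genes in CPM per kb of their own exons against paralogue number, for mouse 16, mouse 55 and the highest of the other 10 libraries, with a symbol for each cluster. Levels peak at number 5, with Hoxa5 at 3.59 and 4.50 CPM per kb, Hoxb8 stands at 0.905 CPM per kb in mouse 16 and 3.96 CPM per kb in mouse 55, and both fall to near 0 from number 9.

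The share of Hox reads that fell on paralogues 6 to 8 was 13.9% in mouse 16 (95% exact Clopper-Pearson interval 12.2 to 15.8) and 27.7% in mouse 55 (25.6 to 29.9). In mouse 201 it was 1.11% (0.0281 to 6.04), or 1 of 90 read pairs, and in mouse 198 it was 0 of 42 read pairs (upper limit 8.41%). These intervals do not overlap between mice 16 or 55 on the one side and mice 201 or 198 on the other. Paralogues 4 and 5 held 55.7% of the Hox reads in mouse 16, 45.7% in mouse 55, 64.4% in mouse 201 (53.7 to 74.3) and 52.4% in mouse 198 (36.4 to 68.0). Of the libraries with a summed Hox level above 1 CPM, those of mice 201 and 198 held reads up to number 5, apart from 1 read pair each of Hoxa6 and Hoxd13 in mouse 201. In the other 8 libraries the 5 to 22 Hox read pairs were too few to give a distribution.

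Mice 16 and 55, of the same genotype and different activity, were compared gene by gene, as 2 libraries and not as groups. Over all 39 members, mouse 55 had 1.37 times the level of mouse 16 (95% interval of the counts, exact conditional binomial, 1.27 to 1.47). Of the 21 members with at least 10 read pairs over both libraries, the interval lay above 1 for 4, below 1 for 1 and included 1 for 16. The 4 were Hoxb8 at 4.38 times (3.34 to 5.81), Hoxb6 at 1.99 times (1.48 to 2.71), Hoxb4 at 1.42 times (1.07 to 1.89) and Hoxa5 at 1.25 times (1.03 to 1.53). Of these 4, Hoxb4 and Hoxa5 had intervals that included 1.37, the ratio over all members. The intervals cover counting error only and were not adjusted for the 21 members compared. The member below 1 was Hoxa4, at 0.680 times (0.467 to 0.981). The Hoxb cluster held 54.9% of the Hox reads in mouse 16 (52.2 to 57.5) and 63.2% in mouse 55 (60.8 to 65.4).

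**Figure D4:**
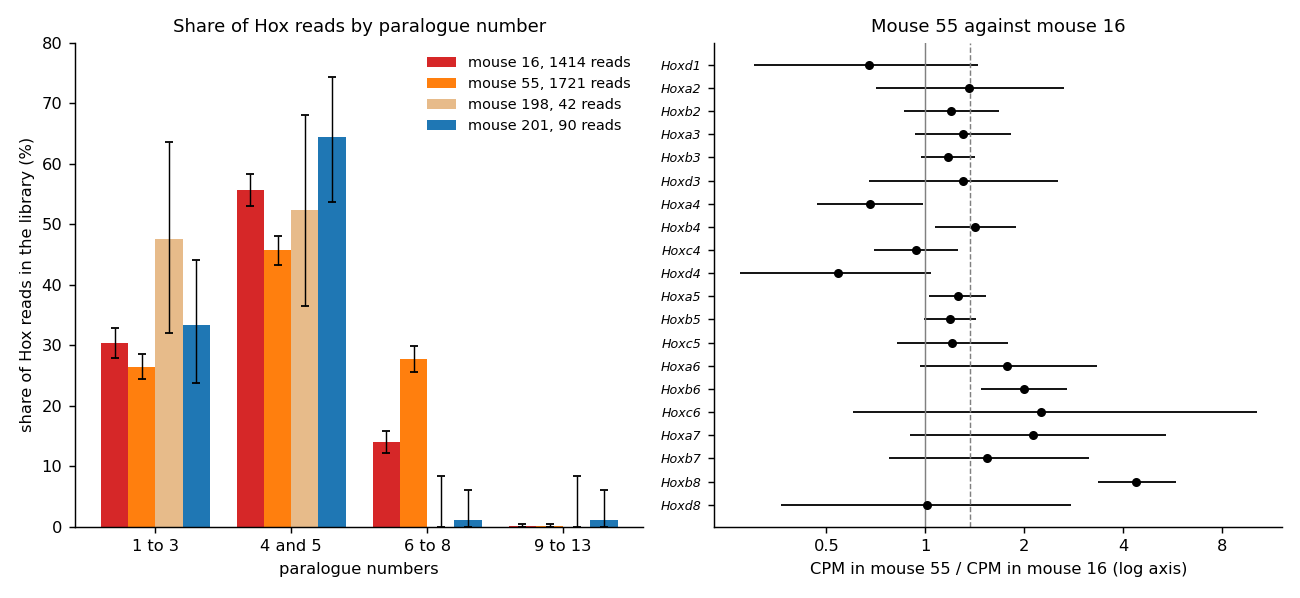
Left, share of each library's Hox reads by paralogue number in mice 16, 55, 198 and 201, with 95% Clopper-Pearson intervals; numbers 6 to 8 hold 13.9% and 27.7% in mice 16 and 55, and 0% and 1.11% in mice 198 and 201. Right, level in mouse 55 over level in mouse 16 for 20 members on a log axis with 95% intervals, where the solid line marks 1 and the dashed line the ratio over all members, 1.37, and Hoxb8 stands at 4.38.

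The bases before the start of 3 members are shown, because they span the range from the highest level per exon length to none. Hoxa5 was the highest member per kb of exon in mouse 16, Hoxb8 differed most between mice 16 and 55, and Hoxa9 had no read in any library. The sequences are from RefSeq (GRCm38.p6), were matched to GRCm39 at 1 place each, and overlap no annotated exon. They lie at chr6:52181568-52181817 on the minus strand for Hoxa5, chr11:96172481-96172730 on the plus strand for Hoxb8 and chr6:52204351-52204600 on the minus strand for Hoxa9. Each is 250 bases long, runs 5′ to 3′ towards the start, and has CG dinucleotides, the sites of DNA methylation, in capitals.
Hoxa5: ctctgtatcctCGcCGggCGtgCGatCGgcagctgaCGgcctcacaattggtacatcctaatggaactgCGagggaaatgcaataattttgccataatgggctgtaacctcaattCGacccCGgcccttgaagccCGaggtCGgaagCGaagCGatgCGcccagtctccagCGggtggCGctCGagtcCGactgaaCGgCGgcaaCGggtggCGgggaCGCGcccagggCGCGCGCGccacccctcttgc
Hoxb8: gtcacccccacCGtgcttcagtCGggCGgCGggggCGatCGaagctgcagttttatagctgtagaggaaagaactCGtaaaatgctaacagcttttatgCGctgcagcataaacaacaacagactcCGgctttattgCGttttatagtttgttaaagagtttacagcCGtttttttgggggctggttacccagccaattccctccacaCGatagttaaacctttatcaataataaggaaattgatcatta
Hoxa9: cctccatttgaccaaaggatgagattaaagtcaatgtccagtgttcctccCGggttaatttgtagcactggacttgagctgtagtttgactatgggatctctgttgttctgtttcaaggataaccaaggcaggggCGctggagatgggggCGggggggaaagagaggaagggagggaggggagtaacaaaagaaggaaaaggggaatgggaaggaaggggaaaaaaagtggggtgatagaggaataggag

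These stretches hold 28 CG dinucleotides before Hoxa5, 12 before Hoxb8 and 3 before Hoxa9. In windows of 300 bases, from 250 before to 50 after the start, 13 promoters of members with reads had a median of 14 (range 4 to 37) and 11 promoters of 9 members without reads a median of 15 (4 to 45), against 7 over all 32841 promoters in the table. A promoter was found for 22 of the 39 members. The letters TATAAA, on either strand, were in 4 of the 24 Hox promoters (13.6% of all promoters), among them Hoxb8 and Hoxd4. The letters TGATNNAT, a core that Hox proteins bind with Pbx, were in 4 of the 24 (8.85% of all), those of Hoxa2, Hoxb1, Hoxb8 and Hoxd11.

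The groups were compared in a single model of all 12 libraries with edgeR's quasi-likelihood test, and a call needed both an absolute log2FC over 0.5 and an adjusted p under 0.05. Only Hoxb3, Hoxa5 and Hoxb5 had enough counts to be retained among the 20341 genes tested. They were retained through the libraries where they were high, so the number with a low p is no measure of the Hox genes as a set. Between SCA1 sedentary and WT sedentary mice, 0 of the 3 were called, where 0.0344% of all genes tested were called, and all 3 had an unadjusted p under 0.05, as did 10.1% of all genes. The adjusted p was 0.416 for Hoxb3, 0.441 for Hoxb5 and 0.470 for Hoxa5 with edgeR. For SCA1 against WT mice averaged over activity, 0 of the 3 were called (0.118% of all genes) with adjusted p of 0.268, 0.367 and 0.389 in the same order, and again all 3 had an unadjusted p under 0.05, as did 9.81% of all genes. The log2FC of Hoxb3 was 5.64 (standard error 2.19) in the former comparison and 4.93 (standard error 1.44) in the latter. Without mouse 16 the former was 1.11, and 0 of the 3 had an unadjusted p under 0.05 with edgeR in either comparison.

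None of the 3 was called for exercise in WT mice, exercise in SCA1 mice, SCA1 against WT mice after exercise, exercise averaged over genotype or the interaction, where 0% of all genes were called. In these 5 comparisons 1 member, Hoxb3 in SCA1 exercise against WT exercise mice, had an unadjusted p under 0.05, as did 2.93% of all genes, and its adjusted p was 0.960 with edgeR. In the others that share of all genes was 4.69% for exercise in WT mice, 2.17% for exercise in SCA1 mice, 3.54% for exercise averaged over genotype and 3.78% for the interaction. The spread between libraries of a group was wide for these genes: the biological coefficient of variation was 1.94 for Hoxa5, 1.86 for Hoxb5 and 1.36 for Hoxb3, against a median of 0.194 over all genes tested. Without mice 16 and 55 none of the 39 members had enough counts to be tested.

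The calls depended on the test. Of the 23 members with reads, DESeq2 gave an adjusted p for 3 between SCA1 sedentary and WT sedentary mice. It gave one for 9 between WT exercise and WT sedentary mice and for 3 in the comparison averaged over activity. Its shares of all genes are of the 35145 genes with reads, with or without an adjusted p. DESeq2 called Hoxa5 between SCA1 sedentary and WT sedentary mice (adjusted p = 8.22e-05), where it called 0.578% of all genes and 5 of the 6 libraries compared had no read of it. It also called Hoxa5 between WT exercise and WT sedentary mice (adjusted p = 0.00507), where it called 0.179% of all genes and WT exercise mice had 0, 1 and 16 read pairs. For SCA1 against WT mice averaged over activity, DESeq2 called Hoxa5 (0.504% of all genes), and edgeR without the filter on low counts called Hoxb3 and Hoxb8 (0.356% of all genes).

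Levels of marker genes of other cells were read beside the Hox sum. Neurons of the brainstem were represented by 20 genes, whose summed level was 518 CPM in mouse 16, 347 CPM in mouse 55 and 65.7 to 113 CPM in the other 10 libraries. Mice 16 and 55 were the highest libraries for 16 of the 20, where this was so for 17.1% of the 20341 genes tested and 11.7% of all genes with reads. Slc6a5, a glycine transporter of inhibitory neurons, had 184 and 144 CPM in mice 16 and 55 against 30.6 to 54.8 CPM elsewhere, so it was present in every library. Glra1, a glycine receptor subunit, had 65.3 and 58.3 CPM against 1.27 to 9.69 CPM. Slc17a6, the vesicular glutamate transporter of deep nuclear and brainstem neurons, had 123 and 61.4 CPM against 11.8 to 40.9 CPM. The order of mice 16 and 55 was opposite to that of the Hox sum. Mouse 201, the third highest in Hox level, had 69.8 CPM of these genes, within the range of the libraries with few Hox reads. Slc6a5 made up 37.0 CPM of that sum. Next in Hox level were mice 198 and 194, with 101 and 113 CPM, the highest of the other 10 libraries. For Chat, Slc18a3 and Isl1, markers of motor neurons that were named after their values were seen, mouse 201 had 0.12, 0 and 0.04 CPM and mouse 16 had 6.04, 9.22 and 1.34 CPM. Mouse 55, the highest in Hox level, had less of Chat and Slc18a3 than mouse 16, with 2.06 and 3.02 CPM. Mouse 194 had 1.10 and 0.680 CPM of them.

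The oligodendrocyte genes, 8 in number, were all highest in mice 16 and 55, as were 17.1% of all genes tested. Their sums were 7088 and 5647 CPM in these mice against 2536 to 4274 CPM elsewhere. The sums of 10 cerebellar cell genes were 2281 and 3382 CPM against 2865 to 4636 CPM. Choroid plexus genes ranged from 22.7 to 2014 CPM over the other libraries and were 865 and 1699 CPM in mice 16 and 55, and mouse 201 had 1115 CPM. Sums of the Schwann cell, skeletal muscle and blood cell lists were at most 5.32, 4.45 and 81.3 CPM. The 13 midbrain and forebrain genes summed to 124 and 152 CPM in mice 16 and 55 and 83.0 to 147 CPM elsewhere. Most of that sum was Ppp1r1b, and the other 12 summed to 35.8 and 24.7 CPM in mice 16 and 55 against 13.5 to 21.1 CPM elsewhere. Meningeal and fibroblast genes summed to 168 and 150 CPM against 70.4 to 135 CPM. The part of these cells, of the multimapping share or of the tissue taken in the Hox levels was not tested.

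**Figure D5:**
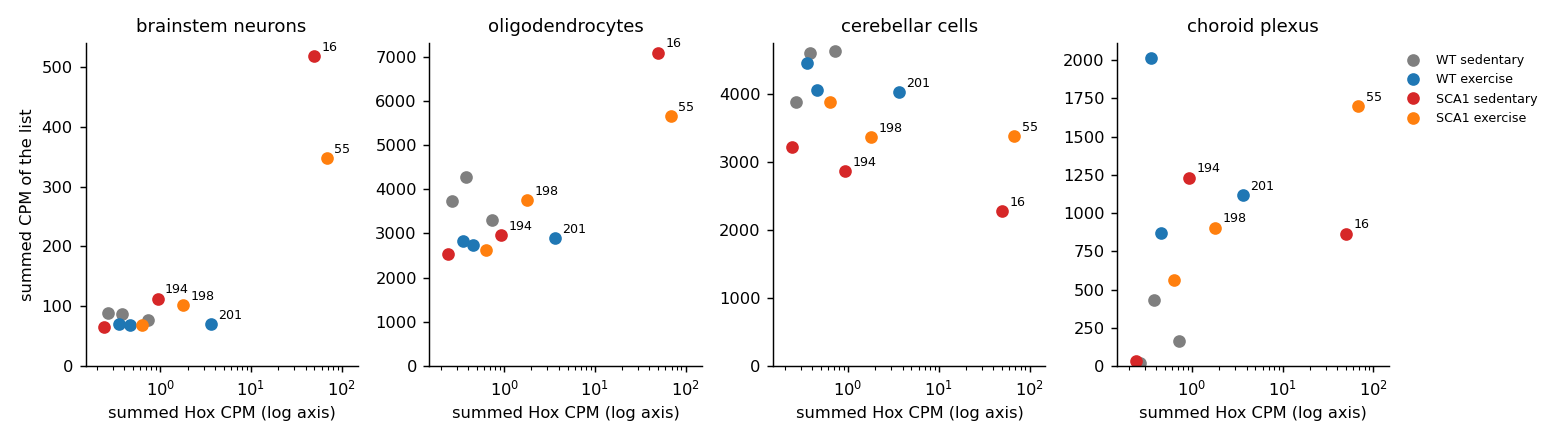
Summed CPM of 4 marker lists against the summed Hox level of each library (log axis), coloured by group, with mice 16, 55, 194, 198 and 201 labelled. Brainstem neuron genes are at 518 and 347 CPM in mice 16 and 55 and at most 113 CPM elsewhere. Mice 194 and 198 are at 113 and 101 CPM, and mouse 201 is not raised. Choroid plexus genes range from 22.7 to 2014 CPM at low Hox levels.

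Partners of Hox proteins were present in every library. The sum of 9 cofactor genes was 443 and 427 CPM in mice 16 and 55 and 428 to 470 CPM elsewhere, and none of the 9 was called in any of the 7 comparisons. Meis1, which binds DNA together with Hox proteins and is also a gene of cerebellar granule cells, had 65.5 and 83.8 CPM against 114 to 146 CPM. Meis2, named after its values were seen, went the other way with 58.0 and 29.4 CPM against 3.25 to 20.1 CPM.

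Regulators that set Hox domains in the embryo, retinoic acid genes included, gave no call either. The 13 genes summed to 99.0 and 93.7 CPM in mice 16 and 55 and 82.5 to 108 CPM elsewhere, and 8 of them were tested. Cyp26b1, which degrades retinoic acid, had 31.6 and 26.0 CPM against 21.4 to 28.5 CPM. Cdx1, Cdx2 and Cdx4, which activate Hox genes of the trunk, had no read in any library. The 18 Polycomb and trithorax genes, whose proteins keep Hox genes silent or active, summed to 1189 and 1338 CPM against 1380 to 1716 CPM, with no call. The 8 genes of the isthmus and the first rhombomere summed to 95.3 and 125 CPM against 114 to 147 CPM, with no call among the 4 tested. Most of that sum was En2. The other 7 summed to 26.3 and 28.1 CPM against 12.7 to 17.5 CPM, so their sum was highest in mice 16 and 55 while En2 was lowest there. Gene by gene, mice 16 and 55 were the highest libraries for 4 of the 8, as for 11.7% of all genes with reads. Fgf17 was highest in WT sedentary mouse 192, with 0.491 CPM against 0.282 and 0.238 CPM in mice 16 and 55.

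Of the 46 further annotated genes that lie between the outermost Hox genes, 18 had reads and 2 were tested, Hoxb3os and Haglr, of which neither was called. Hoxb3os, a long noncoding RNA on the strand opposite to Hoxb3, had 62 and 41 read pairs in mice 16 and 55, 11 in mouse 198 and 0 to 6 elsewhere. Haglr, next to Hoxd1, had 38 and 15 read pairs, and 1 to 11 elsewhere. Mice 16 and 55 held 53 of the 107 read pairs of Haglr and 103 of the 128 of Hoxb3os.

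Among the genes tested, those whose levels ranked most like the Hox sum over the 12 libraries included Gm21769 (Spearman's rho 0.96), which was the highest. Others were Ang, Ccdc88b and Zdbf2 (0.90, 0.90 and 0.89), Exoc3l4, Katnal1 and Trim25 (each 0.87) and Mark1 and St8sia6 (each 0.87). All genes were measured in the same libraries, so these values share depth and tissue. Apart from mice 16, 55, 198 and 201, the libraries had 5 to 22 Hox read pairs each, so much of their order lay within counting error.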

How the data were processed

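RNA of 12 cerebella was sequenced by the authors as ribosome-depleted, directional, paired-end libraries. Per the submitters' notes, reads were checked with FastQC 0.11.9, trimmed with fastp 0.24.0 and aligned to GRCm39 with STAR 2.7.10a. The authors deposited STAR's gene counts, in read pairs and without normalization. STAR drops pairs that fall on several genes or map to several places, which lowers counts of genes with shared exons such as Hoxd3 and Hoxd4. The annotation used for counting was not given in the sources used here. Of 56941 IDs, 56323 matched GENCODE M39.

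Reverse-strand counts were filtered with filterByExpr and scaled by TMM in edgeR 4.0.16 (R 4.3.3), which left 20341 genes. A quasi-likelihood model of the 4 groups gave 7 comparisons with Benjamini-Hochberg adjustment. The script was tested on simulated data. Alternatives included DESeq2 1.42.0, RLE size factors, other filters, unstranded counts, mouse number bands and leaving mice out. Retained members were described individually, the others by range. Of each list, called members and up to 4 with the highest mean CPM could be named. Some genes beyond this rule, such as Chat, Slc18a3, Isl1, Meis2 and Dbh, were named after their values were seen. The members, lists and alternatives were chosen with earlier results of these data known. Nothing shows whether the mice of a group shared a litter, and p-values measure the spread between these samples. Values of some genes are not reported here.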

Additional observations from a re-analysis of the deposited data

Results flagged for a closer look

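Read pairs on the forward strand were not used in the comparisons. On Hoxb3 they numbered 49 in SCA1 sedentary mouse 16 and 38 in SCA1 exercise mouse 55, against at most 1 in the WT sedentary libraries, which is why they are listed. There were also 7 in SCA1 exercise mouse 198, beside 10 on the reverse strand, and 6 in WT exercise mouse 121, beside 1, both larger shares than in mice 16 and 55. The other libraries had 0 to 2. The forward reads made up 18.3% and 14.3% of the pairs on both strands of Hoxb3 in mice 16 and 55, while over all genes that share was 5.54% to 6.01%. Hoxb3os is annotated on that strand from 96233787 to 96245517, over the end of Hoxb3 and the whole of Hoxb2. Gm11536, another long noncoding RNA of that strand, lies within Hoxb3, from 96227125 to 96232934. In mice 16 and 55, Hoxb3os had 62 and 41 read pairs and Gm11536 had 14 and 5, against at most 11 and 2 elsewhere. The part of either RNA in the forward reads was not tested.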

How the results depend on the processing

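Over 127 combinations of comparison and alternative in which a Hox gene was tested, the number of members called stayed at 0 in 123. DESeq2 called 1 member, Hoxa5, for SCA1 sedentary against WT sedentary mice, for WT exercise against WT sedentary mice and for SCA1 against WT mice averaged over activity (adjusted p = 8.22e-05, 0.00507 and 0.00240), where it called 0.578%, 0.179% and 0.504% of all genes. With all genes of at least 1 count, edgeR called 2 members, Hoxb3 and Hoxb8, for SCA1 against WT mice averaged over activity (adjusted p = 0.0351 and 0.0496), where 0.356% of all genes were called. With each mouse left out in turn, the number called was 0 to 0 in all 7 comparisons. With mouse number bands as a covariate, mice 16 and 55 are alone in their band, and for SCA1 against WT mice averaged over activity Hoxb5 turned lower in SCA1 mice (adjusted p = 0.970 with edgeR). Settings that left comparisons without a Hox gene to test were at least 10 counts in every library, mice 16 and 55 left out, and most fits of 2 groups alone. Over all genes, the 7 calls for SCA1 sedentary against WT sedentary mice ranged from 0 to 205 and the 24 for the averaged comparison from 0 to 177. With a mouse left out, the mean summed Hox level ranged from 0.321 to 0.553 CPM in WT sedentary, 0.405 to 2.05 CPM in WT exercise, 0.587 to 25.4 CPM in SCA1 sedentary and 1.21 to 35.1 CPM in SCA1 exercise mice. In the order of those groups, the means were 0.456, 1.48, 17.0 and 23.6 CPM in the main setting. They were 0.457, 1.47, 17.1 and 23.4 CPM with RLE size factors and 0.452, 1.48, 17.0 and 23.5 CPM with total counts. Unstranded counts gave lower means, of 0.272, 1.35, 13.7 and 20.5 CPM. No paired analysis was possible because the groups share no mouse numbers. At 3 mice a group, and with 3 or fewer read pairs for most members in most libraries, only large differences between libraries were measurable.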

Other observations

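SCA1 sedentary mouse 194 carried reads of noradrenergic genes at a low Hox level. Its level of Dbh, the enzyme that makes noradrenaline, was 4.93 CPM, and that of Slc6a2, the noradrenaline transporter, was 6.50 CPM, against 3.43 and 4.10 CPM in mouse 16 and 6.91 and 10.5 CPM in mouse 55. The summed Hox level of mouse 194 was 0.934 CPM. WT sedentary mouse 192 had 1.09 CPM of Dbh and 1.40 CPM of Slc6a2 with 0.264 CPM of all Hox genes. The locus coeruleus, the main noradrenergic nucleus of the brain, lies beside the cerebellum and is known to derive from the first rhombomere. Whether tissue of this nucleus was in any library was not tested, and mouse 55, the highest in Hox level, had the most of both genes among the mice named. Serotonergic genes were highest in mouse 16, with 15.0 CPM of Tph2 and 8.69 CPM of Slc6a4, against 3.02 and 1.79 CPM in mouse 55 and at most 0.98 and 0.40 CPM elsewhere. These genes were named after their values were seen.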
